A study of Homo sapiens with 9 samples.

Results

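The 9 genes described here make long noncoding RNAs that are well known from human cells: MALAT1 and NEAT1, which stay in the nucleus, GAS5, SNHG1 and SNHG12, whose introns hold small nucleolar RNAs, MIR22HG, the host transcript of a microRNA, and PVT1, TUG1 and OIP5-AS1. They were chosen by name, with earlier results of these data known. Each of the 9 symbols was present among the 60606 genes of the deposited table. All 9 had a mean TPM over 1 across the libraries and were among the 22909 genes tested. The lowest value of any member in any library was 2.85 TPM. TPM is a level, scaled to the same total in every library, with transcript length and library total divided out, so that levels of different genes can be compared.

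RNA was sequenced from 3 cell models with 3 libraries each, 9 in all. U87 was the unmodified, established human glioblastoma cell line, grown in serum. GSCs were glioblastoma stem cells derived from U87 and made radioresistant by repeated irradiation, kept in serum-free medium with the growth factors EGF and bFGF. Diff cells were progeny of the irradiated GSCs, differentiated in serum and selected from clonal communities, so that U87 was the only group without irradiation and GSCs the only group without serum. Irradiation, derivation as stem cells and medium therefore cannot be told apart in a comparison of GSCs with U87. The same holds for differentiation, clonal selection and medium in one of Diff with GSCs. In a comparison of Diff with U87, irradiation, passage through the stem cell state and clonal selection cannot be told apart. The labels number the 3 libraries of a group without saying whether they came from separate cultures. The study's general statement on statistics speaks of biological replicates but does not name the RNA libraries. The p-values below measure the spread between these libraries, which may be technical.

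Long noncoding RNAs of this kind act as transcripts. NEAT1 is the scaffold of paraspeckles, nuclear bodies built of the RNA and of RNA-binding proteins such as NONO and SFPQ, and MALAT1, its neighbour on the chromosome, collects in nuclear speckles beside splicing factors. Both end without a poly(A) tail in their long form: RNase P cuts a tRNA-like RNA from the 3′ end and a triple helix protects the end that is left. A snoRNA host gene is spliced, its introns are trimmed to small nucleolar RNAs that guide the modification of ribosomal RNA, and the spliced remainder is often degraded by nonsense-mediated decay when it is translated. GAS5 was named for its accumulation in growth-arrested cells.

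The tRNA-like RNAs at the ends of MALAT1 and NEAT1, and the small RNAs cut from SNHG1 and MIR22HG, are shown because they are separate products of the same transcripts and have rows of their own in the table or in RefSeq. The first pair comes from the GENCODE 29 annotation and its transcripts (GRCh38), at chr11:65506117-65506173 and chr11:65445541-65445598 on the plus strand. The aligned pair was identical at 40 of 59 columns, or 67.8%.
mascRNA of MALAT1: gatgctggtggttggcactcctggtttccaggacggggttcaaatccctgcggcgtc
tRNA-like RNA at the end of NEAT1: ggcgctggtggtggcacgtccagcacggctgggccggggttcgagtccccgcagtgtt

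Of the small nucleolar RNAs in introns of SNHG1, SNORD25 (chr11:62855564-62855632) and SNORD27 (chr11:62855012-62855083), both on the minus strand, are printed with the C box near the 5′ end and the D box near the 3′ end in capitals. These boxes are bound by the core snoRNP proteins.
SNORD25: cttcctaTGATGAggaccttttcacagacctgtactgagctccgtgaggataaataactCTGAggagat
SNORD27: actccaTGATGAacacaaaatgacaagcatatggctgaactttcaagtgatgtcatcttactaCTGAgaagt

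MIR22HG carries the precursor of miR-22. Its mature arms, from RefSeq on GRCh38.p14, lie at chr17:1713914-1713935 and chr17:1713952-1713973 on the minus strand, and the seed, bases 2 to 8, is in capitals.
hsa-miR-22-3p: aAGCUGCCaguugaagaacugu
hsa-miR-22-5p: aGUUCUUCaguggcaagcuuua

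The labelled cell types were compared with markers. Of 4 markers of this line, VIM was at a mean of 1640 TPM in U87, 1210 in GSCs and 616 in Diff, CD44 at 405, 427 and 296 TPM, EGFR at 114, 134 and 98.7 TPM, and CHI3L1 at 107, 557 and 1810 TPM, so that VIM was lowest and CHI3L1 highest in Diff. Of the neuronal markers MAP2 was at 7.95, 8.22 and 21.7 TPM and TUBB3 at 3.74, 4.66 and 5.22 TPM, the latter with no call. DCX reached at most 0.0228 TPM in any library, and STMN2 was listed at 0 in all. The astrocytic marker GFAP was low, at 2.29, 0.809 and 0.909 TPM. S100B at 0.101, 0.134 and 0.617 TPM and ALDH1L1 at 0.011, 0.274 and 0.256 TPM went the other way, and AQP4 reached at most 0.0195 TPM. Of the stem cell markers PROM1 and SOX2 had a mean TPM under 1 and were not tested. PROM1 was at 0.171 TPM in U87, 0.507 in GSCs and 0.0236 in Diff, and SOX2 at 0.0383, 0.879 and 0.153 TPM. FABP7 was 0.731 TPM in U87, 4.91 in GSCs and 2.86 in Diff, and NES was 33.0, 22.6 and 13.5 TPM. PROM1, SOX2 and FABP7 were thus highest in GSCs, and NES in U87. Of 4 markers of blood and endothelium, PTPRC and CD14 reached at most 0.137 and 0.829 TPM in any library, whereas VWF was 0.527 TPM in U87, 11.4 in GSCs and 1.74 in Diff and PECAM1 2.77, 6.25 and 2.92 TPM, so that both were highest in the same group as MALAT1 and NEAT1. Their part in the results below was not tested. In bulk RNA, fewer cells that make a transcript and less of it per cell cannot be told apart. Libraries of one group correlated with r of 0.9561 to 0.9709 over genes, and libraries of different groups with r of 0.8455 to 0.9218.

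The members covered a wide range of levels. NEAT1 was the highest, with a mean of 374 TPM over the 9 libraries, rank 174 among the 60606 genes and rank 2 among the 1042 tested genes that GENCODE 29 lists as long noncoding. TUG1 followed with 45.5 TPM, SNHG1 with 39.2, GAS5 with 35.7, MIR22HG with 23.6 and OIP5-AS1 with 22.4 TPM. PVT1 at 12.1 TPM, SNHG12 at 8.94 and MALAT1 at 6.26 were lower, at ranks 134, 202 and 299 of the 1042 long noncoding genes. MALAT1, known as an abundant RNA in many cells, had the lowest mean of the 9 over all libraries. In GSCs its mean of 12.6 TPM was above the 10.9 TPM of SNHG12. The strand setting and the library type are not settled by the sources, and their part in the level of MALAT1 was not tested. The summed TPM of the 9 genes was 351 to 433 in U87, 897 to 1000 in GSCs and 328 to 368 in Diff, of which NEAT1 alone held 46.5% to 79.6%.

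MALAT1 and NEAT1 had the largest changes of the 9 in both comparisons that involve GSCs. MALAT1 was at 2.85, 3.1 and 3.13 TPM in the 3 U87 libraries, 12.4, 11.4 and 13.9 in GSCs and 3.74, 2.88 and 2.92 in Diff. The GSC libraries lay above all others, and the ranges of U87 and Diff overlapped. Relative to U87, MALAT1 rose in GSCs by 1.75 (SE 0.12) on the scale of log2(TPM + 1), with an adjusted p of 5.13e-06 by limma with Benjamini-Hochberg adjustment over all tested genes, the method behind every adjusted p given here. The ratio of mean TPM was 4.15, and the value on the log scale is smaller because the added 1 weighs on low levels. In Diff cells MALAT1 was lower than in GSCs by 1.70 (log2 fold change -1.70, adjusted p = 1.81e-05 by limma). Against U87 the difference of Diff cells was 0.05, with a 95% interval of -0.23 to 0.32.

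NEAT1 measured 224, 236 and 164 TPM in U87, 784, 779 and 671 in GSCs and 199, 160 and 154 in Diff. Again the 3 GSC libraries lay above all 6 others while U87 and Diff overlapped. The rise in GSCs over U87 was 1.85 (SE 0.15, adjusted p = 1.34e-05 by limma), a ratio of mean TPM of 3.58, and the log2 fold change of Diff against GSCs was -2.12 (adjusted p = 1.79e-05 by limma). Diff against U87 gave -0.28 with an interval of -0.62 to 0.06 and an adjusted p of 0.183 by limma. That comparison depended on 1 library: without U87 replicate 3, whose 164 TPM was the lowest of the group, it was -0.438 with an adjusted p of 0.0263 by limma.

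**Figure D1:**
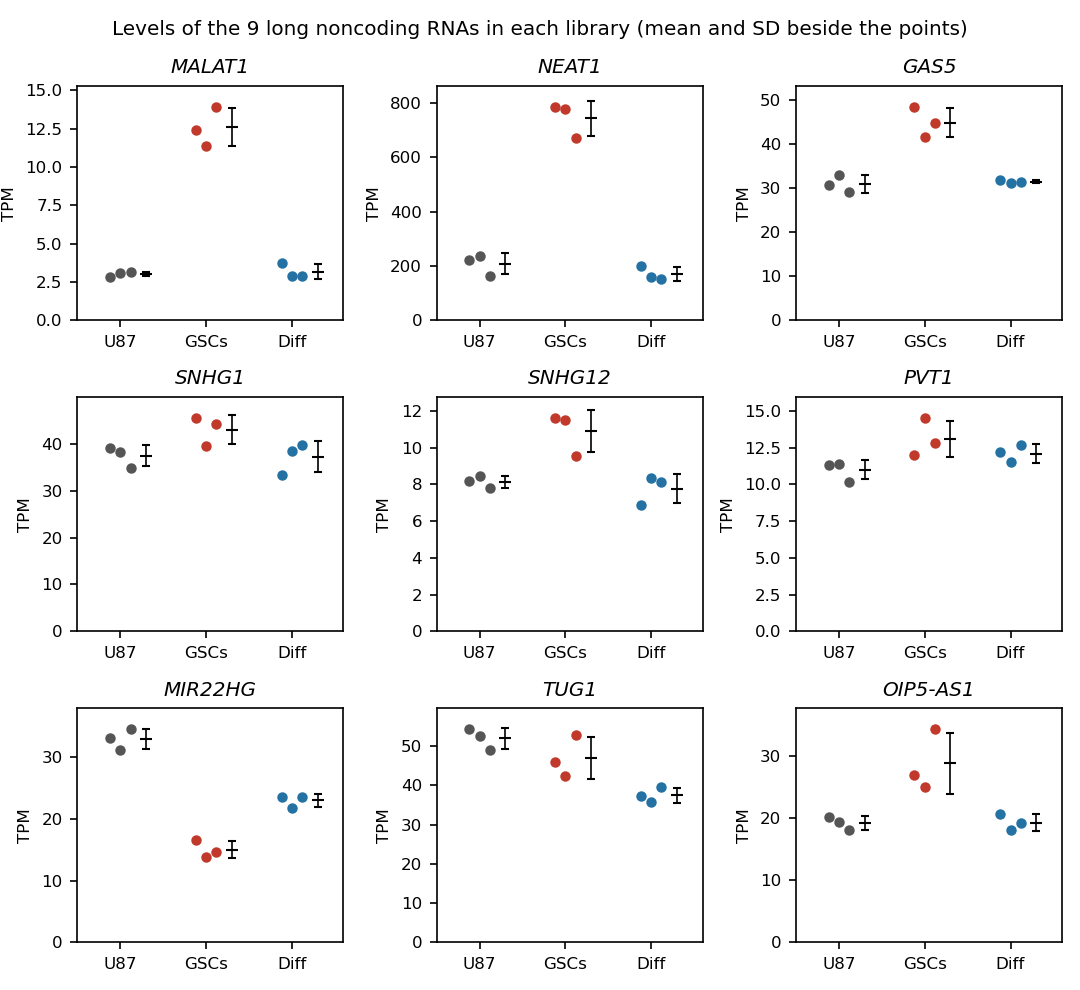
Level in TPM (vertical axis, linear and starting at 0, 1 panel per gene) in the 3 libraries of U87, GSCs and Diff, with the mean and SD of each group as a bar beside its points. The GSC libraries lie above all others for MALAT1, NEAT1, GAS5, SNHG12 and OIP5-AS1, and below all others for MIR22HG.

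MALAT1 and NEAT1 lie on the plus strand of chromosome 11, at chr11:65497688-65506516 and chr11:65422774-65445540 in GENCODE 29, which lists 1 merged exon of 8829 and of 22767 bases. The log2 ratio of MALAT1 to NEAT1 within a library, the difference of their log2(TPM + 1) values, was -5.68 ± 0.311 (SD, n = 3) in U87, -5.78 ± 0.25 in GSCs and -5.36 ± 0.05 in Diff. In a 2-sided exact permutation test it differed by -0.10 between GSCs and U87 (p = 0.5), by 0.32 between Diff and U87 (p = 0.3) and by 0.42 between Diff and GSCs (p = 0.1, the smallest that 3 libraries against 3 allow), and the adjusted values over the 3 comparisons were 0.5, 0.45 and 0.3. With a pseudocount of 0.1 the first difference turned to 0.162 (p = 0.5) and the last shrank to 0.174 (p = 0.4, exact permutation tests).

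The 6 nearest tested protein-coding genes, 3 on each side of the pair, did not share the size of the change in GSCs. Their log2 fold changes against U87 ran from -2.53 for LTBP3, which encodes a protein that binds latent TGF-beta, to 0.82 for the mitochondrial carrier gene SLC25A45, with a median of -0.02. Of the 6, 2 were called higher and 3 lower, where 25.3% of all tested genes were called higher and 23.3% lower. LTBP3 lies 32.3 kb from MALAT1.

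TALAM1, the antisense transcript of MALAT1, covers 7205 bases or 82.1% of the MALAT1 span in RefSeq. Its own level was 1.29 to 1.96 TPM over the 9 libraries, with group means of 1.68 TPM in U87, 1.61 in GSCs and 1.65 in Diff and a log2 fold change of -0.04 in GSCs against U87 (adjusted p = 0.84 by limma). Whether reads were counted by strand is not given in the sources used here, and without strand reads of the 2 genes cannot be told apart where they overlap. In GENCODE 29, exons of genes on the opposite strand cover 4.49% of the MALAT1 exon bases.

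The rows of the tRNA-like RNAs printed above gave no comparison. The mascRNA of MALAT1 was listed at 0 in all 9 libraries. The RNA at the end of NEAT1 was at 7.8, 0 and 6.55 TPM in U87, 7.51, 4.51 and 0 in GSCs and 4.01, 18.8 and 9.51 in Diff, so that the groups overlapped and 1 library each of U87 and GSCs was listed at 0. Of 9 noncoding RNAs without poly(A) tails that served as a comparison, RN7SK, RMRP, RPPH1, RN7SL2 and SCARNA2 were also listed at 0 in all libraries. RN7SL1 by contrast was at a mean of 78700 TPM, RNU4-1 at 522 and RNU5A-1 at 59.2 TPM. Of these 3, the only ones tested, 0 were called by limma in any comparison, and at an unadjusted p under 0.05 there was 1, RN7SL1 in GSCs relative to U87 (-0.54).

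Genes for the proteins of the bodies these RNAs belong to changed by less than 2-fold in every comparison. Of 15 paraspeckle genes, 0 were called higher and 4 lower in GSCs against U87, where 25.3% and 23.3% of all tested genes were called higher and lower, and the median of the list was -0.06 against 0.017 over all genes. At an unadjusted p under 0.05, 0 were higher and 5 lower. RBM14 fell by 0.41, HNRNPK by 0.39, SFPQ by 0.36 and TARDBP by 0.30 on the log2 scale, all 4 of them RNA-binding proteins. In Diff against GSCs 3 paraspeckle genes were called higher and 0 lower, where the shares over all genes were 15% and 19.8%. In Diff against U87 it was 0 higher and 1 lower, with 18.9% and 20.5% over all genes. Of 15 nuclear speckle and MALAT1-processing genes, 2 were called higher and 3 lower in GSCs against U87, beside 25.3% and 23.3% of all genes. Those higher were METTL16 (0.24) and SRRM2 (0.17). Those lower were RNPS1 (-0.77), U2AF2 (-0.45) and ELAC2, the enzyme that cuts the 3′ end of tRNAs (-0.40). In Diff against U87 1 was higher and 1 lower, and in Diff against GSCs 2 were higher and 0 lower, beside the shares given above.

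GAS5 (chr1:173863900-173868882, minus strand) rose in GSCs and was lower again in Diff cells. It measured 30.7, 33.0 and 29 TPM in U87, 48.3, 41.6 and 44.7 in GSCs and 31.8, 31.2 and 31.3 in Diff. All GSC libraries lay above the others, and those of Diff lay within the range of U87. GAS5 was 0.52 higher in GSCs than in U87 (SE 0.0705, adjusted p = 0.00032 by limma) and 0.50 lower in Diff than in GSCs (log2 fold change -0.50, adjusted p = 0.000852 by limma), whereas Diff and U87 differed by 0.03, with an interval of -0.13 to 0.19.

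SNHG12 (chr1:28578538-28583132, minus strand) was at 8.21, 8.45 and 7.81 TPM in U87, 11.6, 11.5 and 9.56 in GSCs and 6.86, 8.33 and 8.11 in Diff. The 3 GSC libraries were the highest, with replicate 3 the closest to the other groups. SNHG12 rose by 0.37 in GSCs against U87 (SE 0.106, adjusted p = 0.0174 by limma), and Diff was lower than GSCs (log2 fold change -0.44, adjusted p = 0.012 by limma). The first of these calls was lost without GSCs replicate 1 (adjusted p = 0.0625), GSCs replicate 2 (0.0541) or U87 replicate 3 (0.0577), and both were lost with quantile normalization (adjusted p of 0.0657 and 0.0732 by limma). Diff against U87 gave -0.07, with an interval of -0.31 to 0.17.

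SNHG1 (chr11:62851988-62855914, minus strand), the highest of the 3 hosts, measured 39.1, 38.3 and 34.9 TPM in U87, 45.4, 39.6 and 44.1 in GSCs and 33.4, 38.4 and 39.7 in Diff. GSCs lay just above U87, and Diff overlapped with both groups. No comparison of SNHG1 was called. GSCs against U87 gave 0.20 (adjusted p = 0.086 by limma), which passed without GSCs replicate 2 (0.253, adjusted p = 0.0463 by limma), Diff against GSCs gave -0.21 (adjusted p = 0.0912 by limma), and Diff against U87 gave -0.01.

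**Figure D2:**
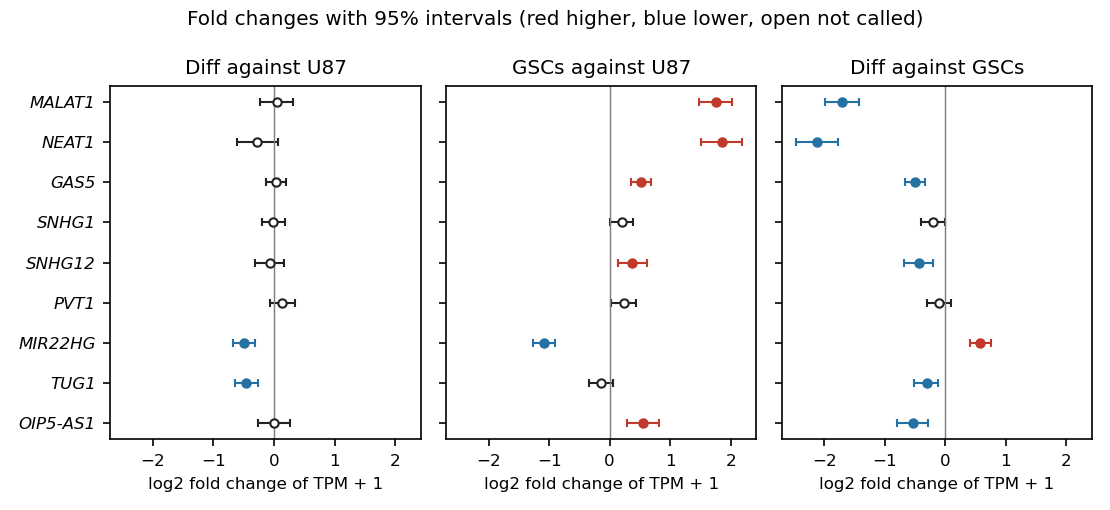
Log2 fold change of TPM + 1 (horizontal axis) of the 9 genes (vertical axis) in 3 comparisons, with bars for the 95% interval, red for called higher, blue for called lower and open points for not called. MALAT1 and NEAT1 lie farthest from 0 wherever GSCs take part, at 1.75 and 1.85 against U87, and 7 of the 9 genes are open in Diff against U87.

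The small nucleolar RNAs inside these hosts could hardly be followed. Of 8 listed for SNHG1, 7 had rows, SNORD25 and SNORD27 among them, and all 7 were listed at 0 in every library. Of 4 listed for SNHG12, all had rows and 3 were listed at 0 throughout; SNORD99 was at 4.08, 7.79 and 5.13 TPM in U87, 3.92, 1.77 and 2.25 in GSCs and 11.0, 3.69 and 1.86 in Diff. For GAS5, 2 of 10 had rows. SNORD79 ran from 3.59 to 5.15 TPM in U87, 3.46 to 10.9 in GSCs and 0 to 11.1 in Diff, and SNORD81 was listed at 0 in 2 U87 libraries and 1 Diff library. None of the 3 detected snoRNAs was called by limma in any comparison, and none had an unadjusted p under 0.05.

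Of these 10 snoRNAs listed at 0, 7 lie wholly inside an exon that GENCODE 29 gives to another gene on the same strand. Exons of the host gene itself were included in this count. SNORD30 lies outside such exons. SNORD29 and SNORA16A were not classed, the latter because its name is repeated in GENCODE 29. Of all 119 snoRNA genes of the first kind, 115 or 96.6% were listed at 0 in all libraries, against 141 of 314 or 44.9% of the other snoRNA genes. A value of 0 is given here only as listed in the table.

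As a class, host genes were called about as often in GSCs against U87 as all tested genes. Of 27 hosts tested, 6 were called higher and 8 lower in this comparison, beside 25.3% and 23.3% of all tested genes, with a median log2 fold change of -0.12 against 0.017 over all tested genes. Without GAS5, SNHG1 and SNHG12 the numbers were 4 higher and 8 lower of 24. EPB41L4A-AS1 rose by 0.93, SNHG15 by 0.68 and SNHG29 by 0.48, while SNHG9 fell by 1.15, DANCR by 0.89, SNHG21 and SNHG18 by 0.81 each, SNHG17 by 0.75 and SNHG30 by 0.58. SNHG3, the highest of the hosts with 79.0 TPM in U87, fell to 51.3 in GSCs and 61.8 in Diff.

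In Diff against U87, 39.4% of all tested genes were called, and 4 hosts were higher and 4 lower. SNHG18 had the largest change, -1.03, from 27.5 TPM to 12.9, followed by SNHG10 (-0.55) and SNHG30 (-0.51). Diff against GSCs gave 5 hosts higher and 4 lower, where 34.8% of all genes were called. SNHG29 (-0.55) and EPB41L4A-AS1 (-0.66) fell with GAS5 and SNHG12, and DANCR (0.64), SNHG17 (0.46), SNHG4 (0.42), SNHG16 (0.28) and SNHG3 (0.27) rose.

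Genes of snoRNP assembly and of nonsense-mediated decay were also counted. Of 13 snoRNP genes, 2 were called higher and 6 lower in GSCs against U87, where 25.3% and 23.3% of all genes were, and 7 higher and 1 lower in Diff against GSCs, where 15% and 19.8% were. RUVBL2, an ATPase of the complex that assembles box C/D snoRNPs, fell by 1.25 in GSCs (adjusted p = 1.85e-05 by limma), and NAF1, an assembly factor of box H/ACA snoRNPs, rose by 0.50. Of 14 decay factors, 0 were called higher and 6 lower in GSCs against U87, where 25.3% and 23.3% of all genes were. The counts were the same at an unadjusted p under 0.05. Taken without direction, the 6 of 14 were near the 48.6% of all genes called there. In Diff against GSCs 8 were higher and 1 lower, beside 15% and 19.8% of all genes, or 34.8% in all. In Diff against U87 it was 5 higher and 4 lower, beside 18.9% and 20.5%, or 39.4% in all. UPF2, which links UPF1 to the exon junction complex, was at 26.9 ± 0.998 TPM (SD, n = 3) in U87, 9.79 ± 1.36 in GSCs and 15.5 ± 0.851 in Diff.

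Host genes often start with a pyrimidine tract, as do messages of ribosomal proteins and translation factors, whose translation follows mTOR and LARP1. Windows of 100 bases centred on a RefSeq start (GRCh38.p14, minus strand) are shown for the 3 hosts, at chr1:28581824-28581923, chr11:62855836-62855935 and chr1:173868996-173869095. Capitals mark a run of C followed by at least 5 C or T that begins between 10 bases before and 20 after the start. The RefSeq start of GAS5 lies outside the span that GENCODE 29 gives for the gene.
SNHG12: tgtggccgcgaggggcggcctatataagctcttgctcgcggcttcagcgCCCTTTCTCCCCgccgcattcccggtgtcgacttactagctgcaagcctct
SNHG1: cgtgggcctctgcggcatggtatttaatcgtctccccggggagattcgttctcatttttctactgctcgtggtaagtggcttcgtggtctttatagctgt
GAS5: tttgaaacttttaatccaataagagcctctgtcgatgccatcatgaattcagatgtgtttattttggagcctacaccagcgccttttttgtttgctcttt

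SNHG12 held such a run at that place. The windows of SNHG1 and GAS5 held none by this pattern within those limits of position, though pyrimidine stretches stand elsewhere in both. The result depends on the start and the pattern used, so it does not show that these genes lack a tract. A run at that place was present at 23.5% of 35116 promoters and in 11 of 26 host genes with a promoter in the table, or 42.3%. The first share counts promoters and the second counts genes. A gene with several starts was counted if any of them held the run, so these shares cannot be compared directly. Of 14 other messages known for the tract that were tested, 8 were called higher and 1 lower in GSCs against U87 (25.3% and 23.3% of all genes), with a median of 0.25, and 4 higher and 0 lower in Diff against U87 (18.9% and 20.5% of all genes). EIF4B, a translation initiation factor, rose from 107 TPM in U87 to 243 in GSCs, and TPT1 from 128 to 217. LARP1 was 0.35 higher in GSCs (adjusted p = 0.000375 by limma), and MTOR was at 39.6 TPM in U87 and 35.2 in GSCs.

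MIR22HG went the other way from most members. It measured 33.1, 31.2 and 34.5 TPM in U87, 16.5, 13.9 and 14.6 in GSCs and 23.6, 21.8 and 23.6 in Diff. The 3 groups did not overlap, with U87 the highest, Diff between and GSCs the lowest. Against U87 it fell by 1.08 in GSCs (SE 0.0782, adjusted p = 6.8e-06 by limma) and by 0.50 in Diff (adjusted p = 0.000998 by limma), and Diff exceeded GSCs by 0.58 (adjusted p = 0.000612 by limma). The row of MIR22, the precursor of the arms printed above, was listed at 0 in all libraries.

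MIR22HG lies at chr17:1711493-1717174 on the minus strand. Of its 6 neighbours 5 were called higher and 0 lower in GSCs against U87, where 25.3% of all genes were called higher, with a median of 0.54; PRPF8 was at 0.04 and not called. WDR81, whose span overlaps that of MIR22HG, rose by 0.38 in GSCs and by 1.09 in Diff against U87. In GSCs against U87, RILP rose by 0.74, SERPINF1, which encodes the secreted factor PEDF, by 0.73, and SMYD4 by 0.71.

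TUG1 (chr22:30969245-30979395, plus strand), known for silencing genes with the Polycomb complex, was lowest in Diff cells. Its levels were 54.3, 52.6 and 49.0 TPM in U87, 45.9, 42.3 and 52.8 in GSCs and 37.2, 35.8 and 39.5 in Diff. The Diff libraries lay below all others, and U87 and GSCs overlapped. TUG1 fell by 0.46 in Diff against U87 (SE 0.0852, adjusted p = 0.00265 by limma). The log2 fold change of Diff against GSCs was -0.31 (adjusted p = 0.0208 by limma), a call that was lost without Diff replicate 1 (0.0577) or Diff replicate 2 (0.0741), and when TPM was rescaled without RN7SL1 and mitochondrial genes (adjusted p = 0.0541 by limma). GSCs against U87 gave -0.15 (adjusted p = 0.19 by limma), which became -0.232 and passed without GSCs replicate 3 (adjusted p = 0.0219 by limma).

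OIP5-AS1 (chr15:41283990-41309737, plus strand), known as cyrano, binds HuR and several microRNAs. It was at 20.2, 19.4 and 18.1 TPM in U87, 27.0, 25.0 and 34.3 in GSCs and 20.7, 18.1 and 19.2 in Diff. All GSC libraries were above the others, with the widest spread of the 3 groups. OIP5-AS1 rose by 0.55 in GSCs against U87 (SE 0.114, adjusted p = 0.00385 by limma) and was lower in Diff than in GSCs (log2 fold change -0.54, adjusted p = 0.00638 by limma), and Diff and U87 differed by 0.00 with an interval of -0.26 to 0.26. OIP5, the protein-coding gene on the other strand, covers 13.3% of its span in RefSeq and was at 4.12 TPM in U87, 3.71 in GSCs and 3.49 in Diff, with no call.

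PVT1, which lies beside MYC on chromosome 8, changed the least of the members between Diff and GSCs. It measured 11.3, 11.4 and 10.2 TPM in U87, 12, 14.5 and 12.8 in GSCs and 12.2, 11.5 and 12.7 in Diff. Both GSCs and Diff lay above U87 by small margins and overlapped with each other. No comparison was called: GSCs against U87 gave 0.23 (interval 0.03 to 0.44, adjusted p = 0.057 by limma), Diff against U87 gave 0.13 (interval -0.07 to 0.34) and Diff against GSCs -0.10 (interval -0.30 to 0.10). The first value passed with a filter at a mean TPM over 5 (adjusted p = 0.0473 by limma) and without GSCs replicate 1 (0.288, adjusted p = 0.0448 by limma). MYC rose from 67.0 ± 2.82 TPM (SD, n = 3) in U87 to 131 ± 18.2 in GSCs and 95.4 ± 4.37 in Diff, or by 0.94 and 0.50, both called. Of the 6 nearest tested protein-coding genes, 4 were called higher and 0 lower in each of these comparisons, beside 25.3% and 18.9% of all genes called higher. MYC is the nearest, at 53.1 kb, and the other 5 lie 1950 to 3800 kb from PVT1.

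**Figure D3:**
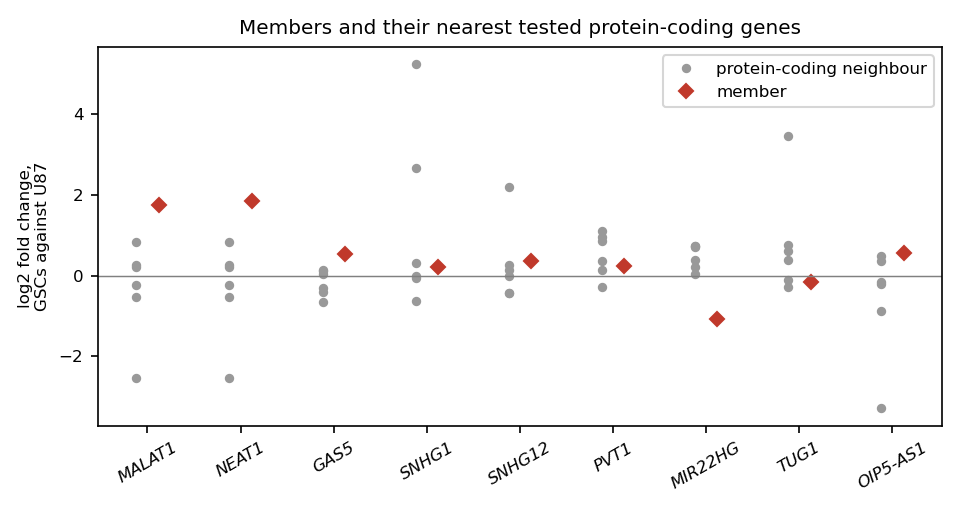
Log2 fold change of GSCs against U87 (vertical axis) of each member (red diamonds) and of its 6 nearest tested protein-coding genes (grey circles), the 6 of MALAT1 and NEAT1 being the same genes. MALAT1 and NEAT1 lie above all of their neighbours, MIR22HG lies below all of its own, and the neighbours of SNHG1 reach 5.22.

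For each comparison the members are set beside all tested genes. The members and the lists of related genes were chosen with earlier results of these data known. Their counts are therefore a description and no test. In GSCs against U87, 5 of 9 members were called higher and 1 lower, and 3 changed more than 2-fold on the log2(TPM + 1) scale, MALAT1, NEAT1 and MIR22HG. Of all tested genes 48.6% were called, and 17.1% with a change over that limit. For 8 members the ranges of the groups did not overlap, as for 55.8% of all genes. The median of the members was 0.37 against 0.017 over all genes.

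In Diff against GSCs, 1 member was called higher and 6 lower, with a background of 15% higher and 19.8% lower. More than 2-fold changes were called for 2 members, MALAT1 and NEAT1, and for 8.01% of all genes, and 7 members had ranges that did not overlap, as had 46.7% of all genes. The median was -0.44 against -0.056. In Diff against U87, 0 members were called higher and 2 lower, against 18.9% and 20.5% of all genes, and at an unadjusted p under 0.05 the counts were the same. No member passed the 2-fold limit, which 12.3% of all genes passed. Ranges did not overlap for 3 members, MIR22HG, TUG1 and PVT1, as for 55.2% of all genes. The median of -0.01 lay beside -0.036 over all genes. The 3 comparisons share their libraries in pairs, so their counts are not independent of each other.

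As a description of shared patterns, the log2 values of each member were correlated with those of 13462 genes with a mean TPM over 5 over the 9 libraries, which fall into 3 groups. The nearest named genes were HECA and HEATR5A for MALAT1 (Pearson r of 0.998 and 0.996), HIF3A and GNAS for NEAT1 (0.994 and 0.993), ZNF805 for GAS5 (0.992) and REEP6 and FOS for SNHG12 (0.976 and 0.969). For MIR22HG they were HLA-DRA, FIBCD1 and TRAF3 (0.993, 0.992 and 0.991), for TUG1 CSNK2A1 (0.985), for OIP5-AS1 TMEM170A and PIK3CA (0.997 and 0.995), for PVT1 AACS (0.977) and for SNHG1 SMIM26 (0.976).

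MALAT1 has 2 starts in RefSeq, and the promoter of the second is printed because MALAT1 had one of the 2 largest changes and this start has a TATA box. The 300 bases at chr11:65498795-65499094 (GRCh38.p14, plus strand) span the start, with TATAAA, 30 bases before the start, in capitals.
MALAT1 second start: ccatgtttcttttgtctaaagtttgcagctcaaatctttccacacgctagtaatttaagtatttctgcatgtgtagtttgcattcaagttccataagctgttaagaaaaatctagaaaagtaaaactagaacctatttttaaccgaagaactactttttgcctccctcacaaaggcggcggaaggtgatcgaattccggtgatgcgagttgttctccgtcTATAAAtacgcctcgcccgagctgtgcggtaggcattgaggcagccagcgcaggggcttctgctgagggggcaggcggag

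Promoters of 7 of the 9 members matched in the RefSeq table, and letters were searched on both strands. TATAAA, present in 11.5% of 35116 promoters, was also found in SNHG1. There it reads on the opposite strand, at base 40 after the start, which is not the place of a TATA box. CACGTG, the E-box that MYC can bind, present in 7.26%, was found in TUG1 and OIP5-AS1. CCAAT, present in 34.6%, was found in GAS5, MIR22HG, TUG1 and OIP5-AS1, and TGACGTCA, present in 1.85%, in none of the 7.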

How the data were processed

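The authors deposited 1 table of log2(TPM + 1) values for 9 libraries. The submitters' processing notes name FastQC 0.11.9, Trimmomatic 0.39, HISAT2 2.2.1, featureCounts 2.0.5, R 4.2.0 and GRCh38; the annotation release and the strand setting are not given in the sources used here. The sample records describe removal of ribosomal RNA and directional libraries, whereas the methods describe oligo(dT) enrichment; which applies bears on RNAs without poly(A) tails. TPM keeps no depth, so no counting error is given, and precision rests on the spread among the 3 libraries of a group.

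After a filter at mean TPM over 1, which left 22909 of 60606 genes, limma 3.58.1 (R 4.3.3; lmFit and eBayes, trend on) fitted all groups together, and p-values were adjusted by Benjamini-Hochberg per comparison; called means an adjusted p under 0.05. The fits were tested on simulated data with 200 genes changed in Diff. In Diff against U87 they recovered 180 of these with 13 false calls, and in Diff against GSCs 182 with 12. In GSCs against U87, where no gene was changed, 0 were called. The simulated shift was larger than most changes of the members, so recovery of smaller changes was not tested. The rest used matplotlib 3.10.9, numpy 2.4.6 and pandas 2.3.3 under Python 3.11.15. Positions are from GENCODE 29, and 36623 gene names of the table matched it; promoters, microRNA arms and antisense spans are from RefSeq. Named were all members, about 10 called members of each list of related RNAs by their largest change, up to 4 genes of other lists, neighbours and the nearest patterns; some hosts, markers and regulators outside this rule were named after their values were seen. Counts over the list of regulators are not reported here. Members and lists were chosen with earlier results of these data known. Alternatives changed the pseudocount, filter, scaling, trend, fold limit, replicate block and libraries; count models were not run, as no counts are used here.

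Same-numbered libraries of different groups did not deviate together, with correlations of -0.0416 to 0.0489 in 9 pairs, so the numbers were not taken to pair libraries.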

Additional observations from a re-analysis of the deposited data

How the results depend on the processing

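Of 243 values of the 9 genes in 3 comparisons under 9 other settings, 237 kept direction and call, and of 243 with 1 library left out 226 did. With a change over 2-fold also required, 0, 3 and 2 members were called in Diff against U87, GSCs against U87 and Diff against GSCs, and 1, 1 and 0 snoRNA hosts. Leaving out 1 library gave 2 to 3, 5 to 7 and 6 to 7 members. The median of the members moved to 0.31 in GSCs against U87 with quantile normalization, and in Diff against GSCs to -0.323 with quantile normalization and -0.388 with median-ratio scaling; leaving out 1 library gave -0.486 to -0.362. Values of Diff against U87 near 0 changed sign: SNHG1 was 0.035 after RN7SL1 and mitochondrial genes were taken out of the TPM total and 0.023 with median-ratio scaling. With 1 library left out, SNHG1 ran from -0.06 to 0.062, MALAT1 from -0.046 to 0.098, GAS5 from -0.017 to 0.073, SNHG12 from -0.113 to 0.011 and OIP5-AS1 from -0.043 to 0.049. The ratio of MALAT1 to NEAT1 in GSCs against U87 changed sign to 0.162 with a pseudocount of 0.1 and ran from -0.241 to 0.0803 with 1 library left out. The cause was not tested. With the replicate number as a block, 8434, 10619 and 7230 genes were called in all in the order above, against 9024, 11129 and 7982, and no call of a member changed, with 2, 6 and 7 members called. Depth is not kept in TPM, so no value near 0 has a detection limit.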

Other observations

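Among other long noncoding RNAs more were called lower than higher. Of 28 tested from a list of 37, 5 were called higher and 15 lower in Diff against U87, by limma with Benjamini-Hochberg adjustment, beside 18.9% and 20.5% of all tested genes. In GSCs against U87 it was 6 higher and 14 lower, beside 25.3% and 23.3%. In Diff against GSCs it was 3 higher and 10 lower, beside 15% and 19.8%. LUCAT1, a stress-induced RNA, measured 91.4, 93.8 and 83.7 TPM in U87, 19.3, 17.8 and 19.8 in GSCs and 7.9, 7.0 and 8.09 in Diff, with no overlap of the 3 groups. Against U87 the log2 fold change reached -3.39 in Diff (adjusted p = 2.68e-08 by limma) and -2.18 in GSCs. MIR210HG, the host of the hypoxia-regulated miR-210, was at 27.8 ± 1.1 TPM (SD, n = 3) in U87, 16.6 ± 2.73 in GSCs and 3.12 ± 0.105 in Diff. MEG3, an imprinted RNA, was at 3.62 TPM in U87 and at 0.00843 and 0.0309 TPM in GSCs and Diff.

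MIR100HG, the host of miR-100, let-7a-2 and miR-125b-1, was highest in GSCs, as was NEAT1. Its level was 47.0 ± 1.49 TPM in U87, 93.3 ± 13.0 in GSCs and 34.1 ± 2.68 in Diff. It rose by 0.96 in GSCs and fell by 0.45 in Diff against U87, both called. PCAT6 fell by 2.31 in Diff and by 1.49 in GSCs against U87, GABPB1-AS1 by 2.00 and 1.22, LINC00511 by 1.30 and 1.53, and MIR155HG by 1.17 and 1.60. LINC01116 fell by 1.43 in GSCs and by 0.40 in Diff against U87, and KCNQ1OT1, an imprinted antisense RNA, fell by 1.1 in Diff.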
